A study of Rattus norvegicus with 9 samples.

Results

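Pulmonary artery banding (PAB) without marked fibrosis was studied by comparing banded right ventricles of the F- group with ventricles of sham-operated rats. These were 6 of the 9 arrays of the study, chosen by their labels as the 3 arrays of the F- group and the 3 arrays of the sham-operated group. All arrays were of right ventricle from male Sprague-Dawley (SD) rats, and no genotype or drug separated the groups. Per the methods, hearts were sorted 4 weeks after the operation, and a heart with a fibrotic area under 6.5% belonged to the F- group while a heart above it belonged to the F+ group. The F- group is therefore a banded ventricle selected after the operation for its low fibrosis, and its degree of overload per rat was not stated. Nor was the age of the rats at sampling or whether 1 rat stood behind each array, so the p-values measure the spread between these arrays. The array had 29215 features, of which 15310 carried 1 gene symbol, and 14506 genes were followed by their brightest feature.

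Banding of the pulmonary artery narrows the outflow of the right ventricle, which then pumps against a higher pressure. Overloaded cardiomyocytes enlarge, and in many models they raise natriuretic peptide genes and genes of the fetal heart, build more protein and turn from fatty acid toward glucose as a fuel. Fibroblasts may deposit collagen between the enlarged cells, and the F- group is the setting in which that deposition stayed low. The comparison of F- with sham thus addresses what pressure overload changed in the absence of marked fibrosis.

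No feature of the F- group differed from sham past an adjusted p of 0.05 in limma, which was 0% of 29215 features, and the smallest adjusted p was 0.743. At an unadjusted p under 0.05 there were 1762 features, or 6.03%. Among the 14506 genes, 407 (2.81%) were higher and 402 (2.77%) were lower in the F- group at that level. The split depended on the scaling, being 497 higher and 310 lower after each array was centred on its median and 329 higher and 420 lower after quantile normalization. The mean log2 value was higher in the F- group for 48.2% of genes and lower for 51.7%, and the median difference over all genes was -0.0020. All 3 F- arrays lay above all 3 sham arrays for 740 genes (5.1%) and below them for 686 genes (4.73%). These shares of genes without overlap are the background for the lists below, beside the share of genes of the same brightness where it is given. Bright genes contributed more of the first kind. Among the brightest 20% of genes 61.0% had a higher mean, 9.48% lay above and 4.10% below. Among the next-to-dimmest 20% 30.7% had a higher mean, 1.27% lay above and 6.27% below. In the middle 20% 42.3% had a higher mean. Counts of lower members in lists of such genes are therefore to be read beside these shares as well as the 51.7%. None of the differences named below passed the adjusted threshold, so "higher" and "lower" describe the means of these arrays.

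**Figure D1:**
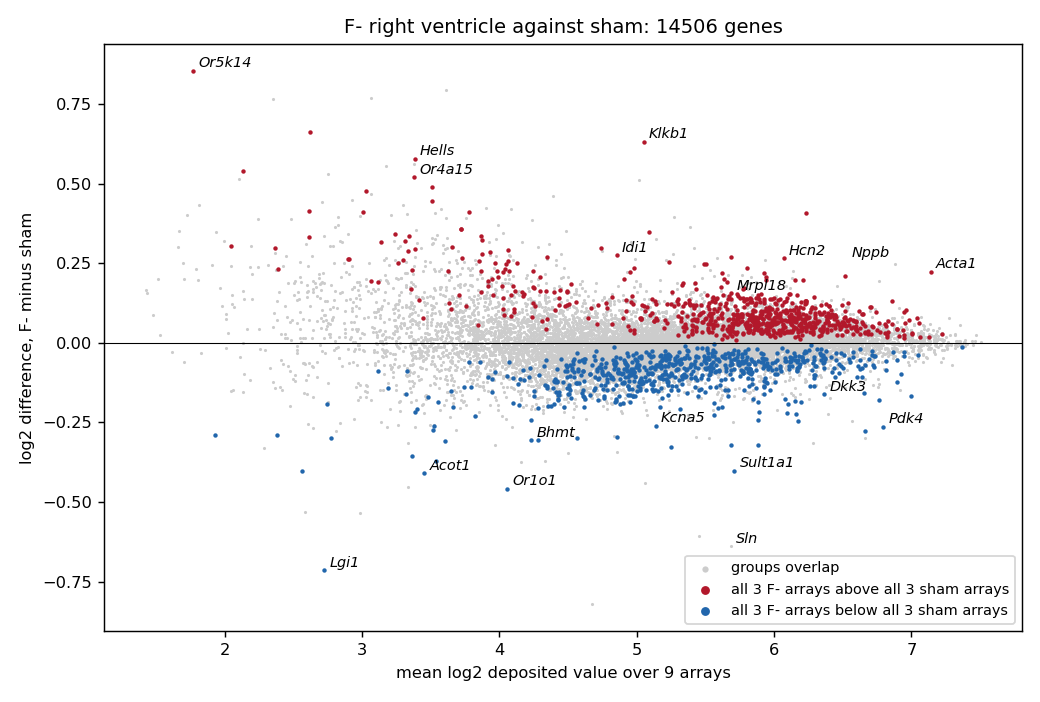
Each point is 1 of 14506 genes, with the mean log2 deposited value over 9 arrays on the x axis and the log2 difference of the F- group from sham on the y axis. Red and blue points are the 740 and 686 genes whose F- and sham arrays did not overlap, and most of the red points lie to the right of the plot at small differences.

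The scale of the deposited values was not stated in the sources used here, which limits how a difference can be read. The values ran from 1 to 190.4, and every difference in the text is a difference of their log2 unless square roots are named. By this measure 6 genes (0.0414%) were over 1.5-fold higher and 4 genes (0.0276%) were over 1.5-fold lower in the F- group. Had square roots of the values been the log2 intensities, 32 and 27 genes would have passed the same line. Sizes are therefore to be compared between genes of like brightness, and not as folds of transcript.

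F- array 1 stood apart from the other two. Over the 11603 brightest genes, the root mean square log2 difference between F- arrays 2 and 3 was 0.0799, whereas F- array 1 differed from them by 0.122 and 0.122. F- array 1 was nearer to the F+ arrays, at 0.0935 to 0.103. The differences of F- arrays 2 and 3 from the sham arrays were 0.0799 to 0.109. Sham array 1 also stood off, at 0.102 and 0.0977 from the other sham arrays, which differed by 0.0785 from each other. Where leaving out an array moved the median of a list by more than 1.5 times or changed its sign, the value without it is given beside the median.

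Genes of wall stress separated the F- arrays from each other more than they separated the groups. Nppb, which encodes the natriuretic peptide BNP, had values of 100.2, 91.9 and 98.8 in the sham arrays and 151.8, 98.5 and 101.8 in the F- arrays. Only F- array 1 was outside the sham range by a wide margin, and F- array 2 lay within it. Nppa, which encodes the atrial natriuretic peptide ANP, had values of 57.7, 135.8 and 59.7 in sham and 155.6, 37.0 and 43.6 in F-. Here sham array 2 was as high as the F+ arrays, which were at 149.5, 134.3 and 140.2, and the other two F- arrays were below every sham array. The log2 difference was 0.25 ± 0.15 (SE) for Nppb and -0.30 ± 0.55 (SE) for Nppa. In the list of hypertrophy and fetal genes, 10 of 18 measured members were higher, 2 were above without overlap and 2 below, and the median difference of 0.030 became -0.018 without F- array 1. It was 0.016 without sham array 2 and 0.052 to 0.076 without sham array 1, F- array 2 or F- array 3.

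Acta1, which encodes the skeletal form of alpha actin that the fetal heart expresses, was the member with the clearest separation. Its values were 124.9, 132.3 and 135.5 in sham and 169.4, 144.7 and 145.5 in F-. Every F- array was above every sham array, and the log2 difference was 0.22 ± 0.076 (SE). The F+ arrays, at 127.8, 141.2 and 147.1, overlapped both groups. Rcan1, a calcineurin inhibitor that is itself a calcineurin target, had values of 107.7, 89.5 and 99.3 in sham and 128.3, 105.6 and 106.0 in F-, so that the groups overlapped. The myosin heavy chains did not separate either: Myh6, the adult alpha chain, differed by 0.024 ± 0.045 (SE) and Myh7, the fetal beta chain, by 0.059 ± 0.11 (SE). In sham, Myh7 ranged from 112.3 in array 2 to 159.1 in array 1, which enclosed all F- arrays.

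**Figure D2:**
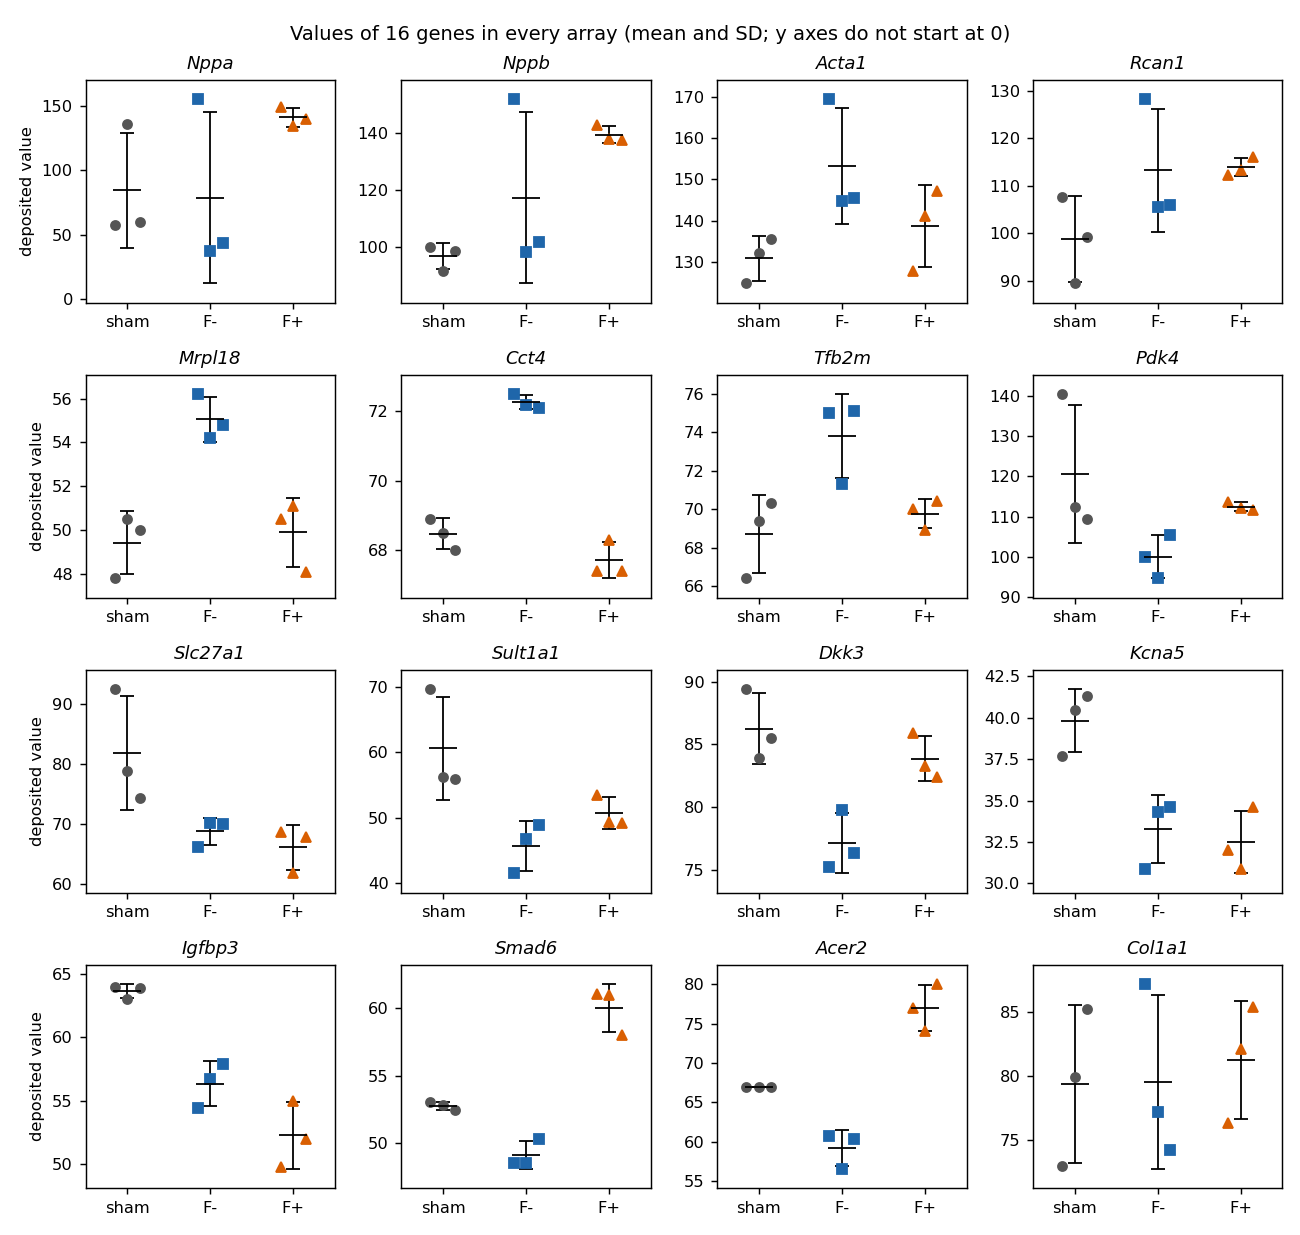
Each panel gives the deposited value of 1 gene in the 3 sham, 3 F- and 3 F+ arrays, with arrays 1 to 3 from left to right and the mean and SD in black. Nppb and Nppa are high in F- array 1 alone among the F- arrays, while Acta1, Mrpl18, Cct4 and Tfb2m are above sham and Pdk4, Slc27a1, Sult1a1, Dkk3, Kcna5, Igfbp3, Smad6 and Acer2 are below sham in all 3.

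Genes of the contractile apparatus were mostly a little higher. In the list of sarcomere and Z-disc genes 22 of 25 members had a higher mean in the F- group, and the median was 0.018. Only 2 (8%) lay above sham without overlap, no more than the 9.25% of genes of the same brightness. The median was 0.012 without F- array 1, 0.0100 without sham array 1 and F- array 1, and 0.011 with quantile normalization. Csrp3, which encodes the stretch sensor muscle LIM protein of the Z-disc, had values of 131.8, 126.9 and 125.1 in sham and 140.8, 131.9 and 132.1 in F-. Smpx, a small protein of the costamere, had values of 98.5, 101.1 and 101.9 in sham and 109.9, 106.4 and 109.6 in F-. Both were separated, with gaps that were small for Csrp3 and wider for Smpx. Cfl1, which encodes the actin-severing protein cofilin, was at 76.5, 82.3 and 79.9 in sham and 87.7, 85.8 and 84.8 in F-. Smpx and Cfl1 belong to other lists, of ventricular cardiomyocytes and of cytoskeleton and growth signalling. Of the 23 ventricular markers 16 were higher and 2 (8.70%) were above without overlap, against 9.48% for genes of the same brightness. Of the 45 cytoskeleton and growth genes 27 were higher, 5 (11.1%) were above and 2 below, against 8.33% above.

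The functional list with the highest share of members above sham was that of the mitochondrial ribosome, which translates the few proteins encoded by the mitochondrial genome. Of 68 measured genes 64 had a higher mean in the F- group, 16 (23.5%) lay above sham without overlap and none lay below. Genes of the same brightness lay above sham in 8.27% on average. At an unadjusted p under 0.05, 12 were higher and 0 were lower. The median difference was 0.055, and it was 0.050 without F- array 1, 0.029 without sham array 1 and 0.035 without both. The same genes had a median of 0.012 in F+ against sham. The F+ and F- groups share the sham arrays, and the difference between F+ and F- itself did not pass the adjusted threshold for any gene in limma.

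**Figure D3:**
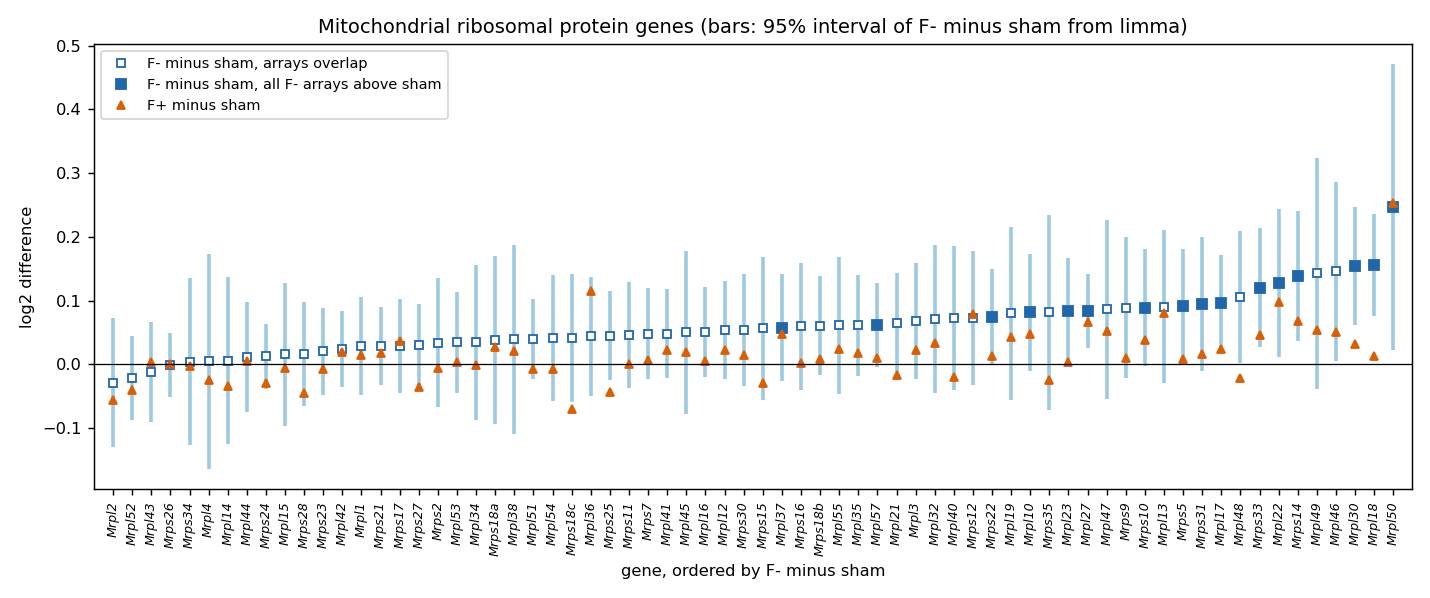
Each position on the x axis is 1 of 68 mitochondrial ribosomal protein genes, ordered by the log2 difference of F- from sham (squares, with the 95% interval from limma), and triangles give F+ minus sham. The squares lie above 0 for 64 genes, the 16 filled squares have no overlap between the F- and sham arrays, and most triangles lie below their square.

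Mrpl18, a protein of the large subunit, had the smallest p of the list. Its values were 47.8, 50.5 and 50.0 in sham and 56.2, 54.2 and 54.8 in F-. The 3 F- arrays lay close together and above every sham and every F+ array, the latter being at 50.5, 51.1 and 48.1. The log2 difference was 0.16 ± 0.035 (SE, n = 3 arrays a group). Mrpl30, also of the large subunit, had values of 49.9, 51.6 and 50.8 in sham and 55.5, 56.3 and 57.7 in F-. Mrps14, of the small subunit, was at 54.4, 61.5 and 57.7 in sham and 62.6, 64.3 and 64.0 in F-, and Mrpl27 at 65.9, 66.5 and 67.7 in sham and 72.3, 70.3 and 69.4 in F-. In all 4 genes every F- array was above every sham array, with the narrowest gap in Mrps14.

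The upstream promoters of these 4 genes are shown because they were the members of the list with the largest moderated t. Each is the stretch of 250 bases before the RefSeq start on assembly GRCr8, 5′ to 3′ on the gene's strand, and capitals mark matches to the letters CCGGAAG (the core of ETS family sites), TGCGCA (the core of an NRF-1 site) or CCAAT (an NF-Y box) on either strand. Mrpl18 is at chr1:50384702-50384951, Mrpl30 at chr9:47620977-47621226, Mrpl27 at chr10:80092095-80092344 and Mrps14 at chr13:74962347-74962596, all on the plus strand.
Mrpl18: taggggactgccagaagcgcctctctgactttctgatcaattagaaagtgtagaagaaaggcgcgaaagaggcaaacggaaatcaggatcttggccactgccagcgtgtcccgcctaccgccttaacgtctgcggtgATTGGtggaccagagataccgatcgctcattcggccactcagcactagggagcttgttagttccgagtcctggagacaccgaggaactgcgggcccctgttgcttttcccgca
Mrpl30: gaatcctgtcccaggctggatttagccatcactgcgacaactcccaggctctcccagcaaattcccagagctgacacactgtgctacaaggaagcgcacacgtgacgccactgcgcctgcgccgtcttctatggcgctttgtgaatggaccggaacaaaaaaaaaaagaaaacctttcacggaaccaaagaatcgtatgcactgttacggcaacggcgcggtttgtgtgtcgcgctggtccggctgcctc
Mrpl27: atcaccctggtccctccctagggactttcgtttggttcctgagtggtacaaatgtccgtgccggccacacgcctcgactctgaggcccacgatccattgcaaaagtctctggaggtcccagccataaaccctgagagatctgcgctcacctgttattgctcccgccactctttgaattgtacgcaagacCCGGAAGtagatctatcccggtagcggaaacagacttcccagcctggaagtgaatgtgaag
Mrps14: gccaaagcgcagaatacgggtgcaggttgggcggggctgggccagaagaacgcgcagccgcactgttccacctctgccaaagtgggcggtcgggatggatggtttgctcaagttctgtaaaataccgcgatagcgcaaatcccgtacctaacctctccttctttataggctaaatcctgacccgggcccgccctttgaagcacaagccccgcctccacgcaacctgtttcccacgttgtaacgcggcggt
Mrpl18 held 1 NF-Y box and Mrpl27 held 1 ETS core, and the other two held none of the 3 motifs. Of the 68 genes, 54 had an entry in the RefSeq promoter table. The ETS core was found in 20.4% of these and in 11.2% of the 11950 genes with an entry, the NRF-1 core in 24.1% and 9.46%, and the NF-Y box in 42.6% and 35.6%. These matches describe the letters in this window only.

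Some other genes of mitochondrial gene expression and most of those of respiration also had higher means. The list of mitochondrial regulators and dynamics was divided, with 14 of 25 members higher and 11 lower. In it 3 (12%) were above sham without overlap and none below, against 8.38% above for genes of the same brightness. Tfam, which packages and transcribes mitochondrial DNA, had values of 51.9, 52.5 and 52.5 in sham and 54.1, 54.6 and 55.8 in F-. Tfb2m, the transcription factor that works with the mitochondrial RNA polymerase, was at 66.4, 69.4 and 70.3 in sham and 75.0, 71.3 and 75.1 in F-. Both lay above sham without overlap, and the F+ arrays of Tfam, at 51.1, 52.5 and 51.2, did not. In respiratory chain complex I, the entry point of electrons from NADH, 28 of 33 members were higher and 5 (15.2%) were separated. Genes of the same brightness lay above sham in 9.38% on average. Complex I had a median of 0.024, or 0.010 without sham array 1 and 0.016 with quantile normalization. Its leading members were Ndufa6 (0.10 ± 0.041, SE), Ndufs5 (0.069 ± 0.027, SE) and Ndufb3 (0.070 ± 0.029, SE). Complexes III to V had 25 of 34 members higher, but only 2 (5.88%) above and 1 below without overlap. The citric acid cycle had 3 of 18 (16.7%) above and 1 below. For these lists, genes of the same brightness lay above sham in 9.43% and 9.48% on average.

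Genes that make, fold and break down proteins were also higher more often than lower. Among cytosolic ribosomal proteins 64 of 70 were higher and 14 (20.0%) were separated, against 8.95% above sham for genes of the same brightness. The median of these proteins was 0.035, or 0.022 with quantile normalization. Rps25 was at 61.5, 69.9 and 64.9 in sham and 70.1, 73.3 and 74.9 in F-, Rps15a at 59.9, 63.5 and 59.1 in sham and 66.7, 64.9 and 69.4 in F-, and Rpl6 at 74.4, 78.2 and 74.8 in sham and 80.5, 81.9 and 80.2 in F-. The F+ arrays of these genes overlapped both groups. Pno1, which is needed to assemble the small cytosolic subunit, had one of the smallest p-values among the genes that were higher, with 40.3, 39.5 and 41.1 in sham and 44.0, 42.9 and 44.4 in F-.

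Among chaperones 24 of 30 were higher and 5 (16.7%) were separated, against 8.68% above sham for genes of the same brightness. Cct4, a subunit of the chaperonin that folds actin and tubulin, had a gap between the groups wider than the range of either, with 68.9, 68.5 and 68.0 in sham, 72.5, 72.2 and 72.1 in F- and 67.4, 68.3 and 67.4 in F+. Hspb3, a small heat shock protein of muscle, was at 44.7, 48.1 and 48.7 in sham and 56.9, 54.5 and 50.2 in F-. The median of the chaperones was 0.052, with 0.026 without F- array 1 and 0.012 without sham array 1 and F- array 1. Of the proteasome, 27 of 37 subunits were higher and 6 (16.2%) were separated, against 8.21% above sham for genes of the same brightness. The separated subunits included Psmc4 (0.092 ± 0.038, SE) and Psmd14 (0.063 ± 0.027, SE). The list of muscle protein breakdown and autophagy did not share this, with 18 of 25 members lower and 1 separated.

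**Figure D4:**
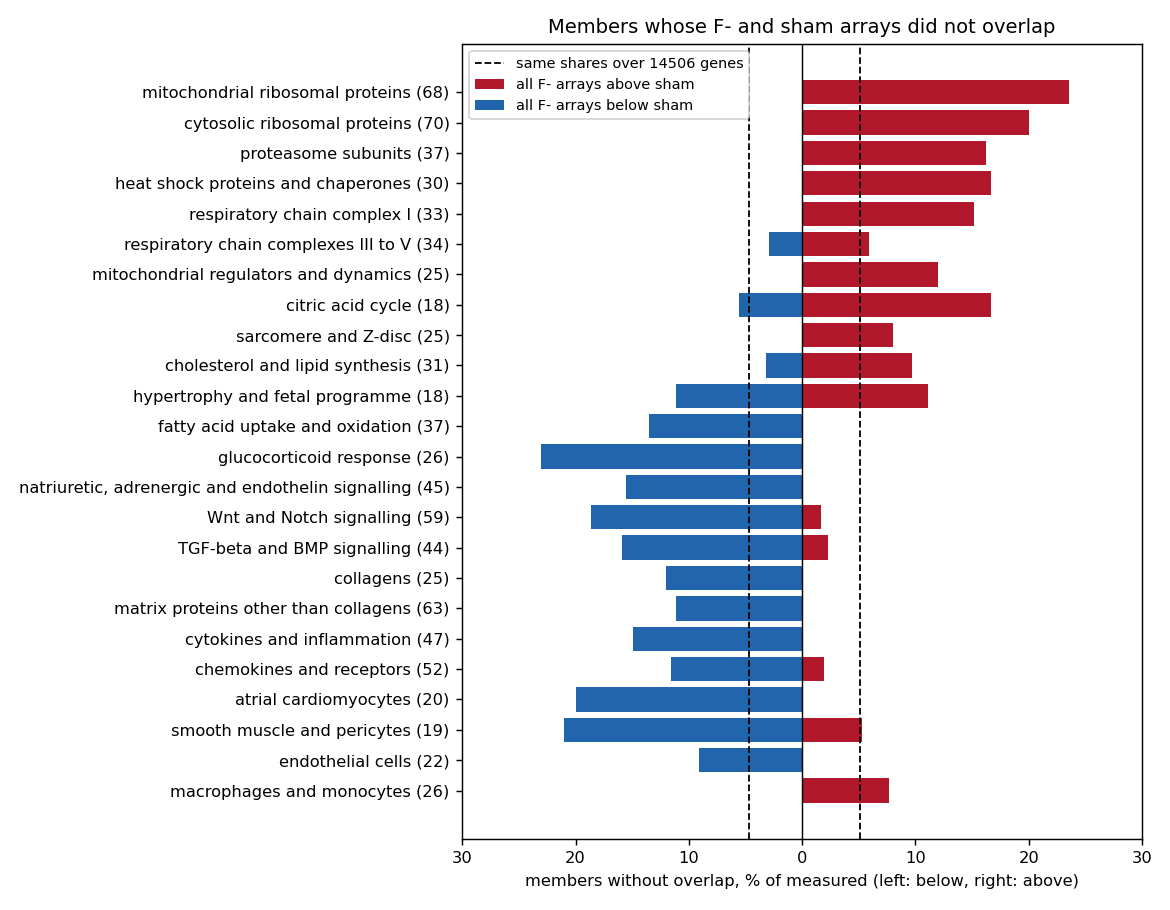
Bars give the share of the measured members of a list (number in parentheses) whose 3 F- arrays all lay above (red) or all below (blue) the 3 sham arrays, and dashed lines give the shares over all genes, 5.1% and 4.73%. Ribosomal, proteasome, chaperone and complex I lists extend to the right only, and fatty acid, glucocorticoid, natriuretic and atrial lists to the left only. For the ribosomal, proteasome, chaperone and complex I lists, genes of the same brightness lay above sham in 8.21% to 9.38% on average, more than the dashed line. For the fatty acid, glucocorticoid, natriuretic and atrial lists, genes of the same brightness lay below sham in 4.15% to 4.98%.

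Genes of fatty acid use were lower. In the list of fatty acid uptake and oxidation 31 of 37 members had a lower mean, 5 (13.5%) lay below sham without overlap and none above, and the median was -0.036. Slc27a1, a fatty acid transporter of the cell surface, was at 92.4, 78.8 and 74.3 in sham and 66.2, 70.2 and 70.0 in F-. Decr1, an enzyme for the oxidation of unsaturated fatty acids, was at 84.8, 71.6 and 73.0 in sham and 60.8, 66.8 and 68.8 in F-. Pdk4, a kinase that inhibits pyruvate dehydrogenase, was at 140.5, 112.3 and 109.3 in sham and 99.9, 94.7 and 105.5 in F-. Sham array 1 was the highest array for all of these genes, yet sham arrays 2 and 3 also lay above every F- array. The list's median was -0.022 without sham array 1, -0.017 without F- array 1 and -0.00022 without both, with 18 of 37 members higher, so the direction of the list as a whole rested on those arrays. In F+ against sham its median was -0.095.

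Acot1, a thioesterase of fatty acyl-CoA, was among the largest decreases, with 18.3, 11.9 and 11.1 in sham and 10.1 in each F- array. Glucose genes were divided, with 21 of 32 higher and 1 separated in each direction, and 14 of 32 were higher without sham array 1 and F- array 1. Pgk1, a glycolytic kinase, differed by 0.11 ± 0.045 (SE), with overlap. Txnip, which restrains glucose uptake, was the separated member on the lower side, at 147.2, 130.8 and 131.1 in sham and 111.6, 124.1 and 128.7 in F-. Slc2a1, the basal glucose transporter GLUT1, was at 63.8, 75.5 and 74.5 in sham, 65.5, 65.5 and 62.2 in F- and 79.5, 79.1 and 75.7 in F+.

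Targets of the glucocorticoid receptor showed a similar pattern. Of 26 measured members 23 were lower and 6 (23.1%) were below sham without overlap, and the median of -0.063 was -0.036 without sham array 1. Sult1a1, a sulfotransferase, had values of 69.6, 56.2 and 55.9 in sham and 41.5, 46.8 and 48.9 in F-. The difference of -0.40 ± 0.10 (SE) was among the largest of the separated decreases. Pdk4 belongs to this list too. Per1, a clock gene that glucocorticoids induce, was at 78.7, 61.8 and 58.2 in sham and 55.0, 54.1 and 57.4 in F-. Immediate early genes, which are induced within minutes of a stimulus, had 24 of 30 members lower and none separated. Their median of -0.062 turned to 0.051 without sham array 1, and was -0.11 and -0.10 without sham arrays 2 and 3.

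**Figure D5:**
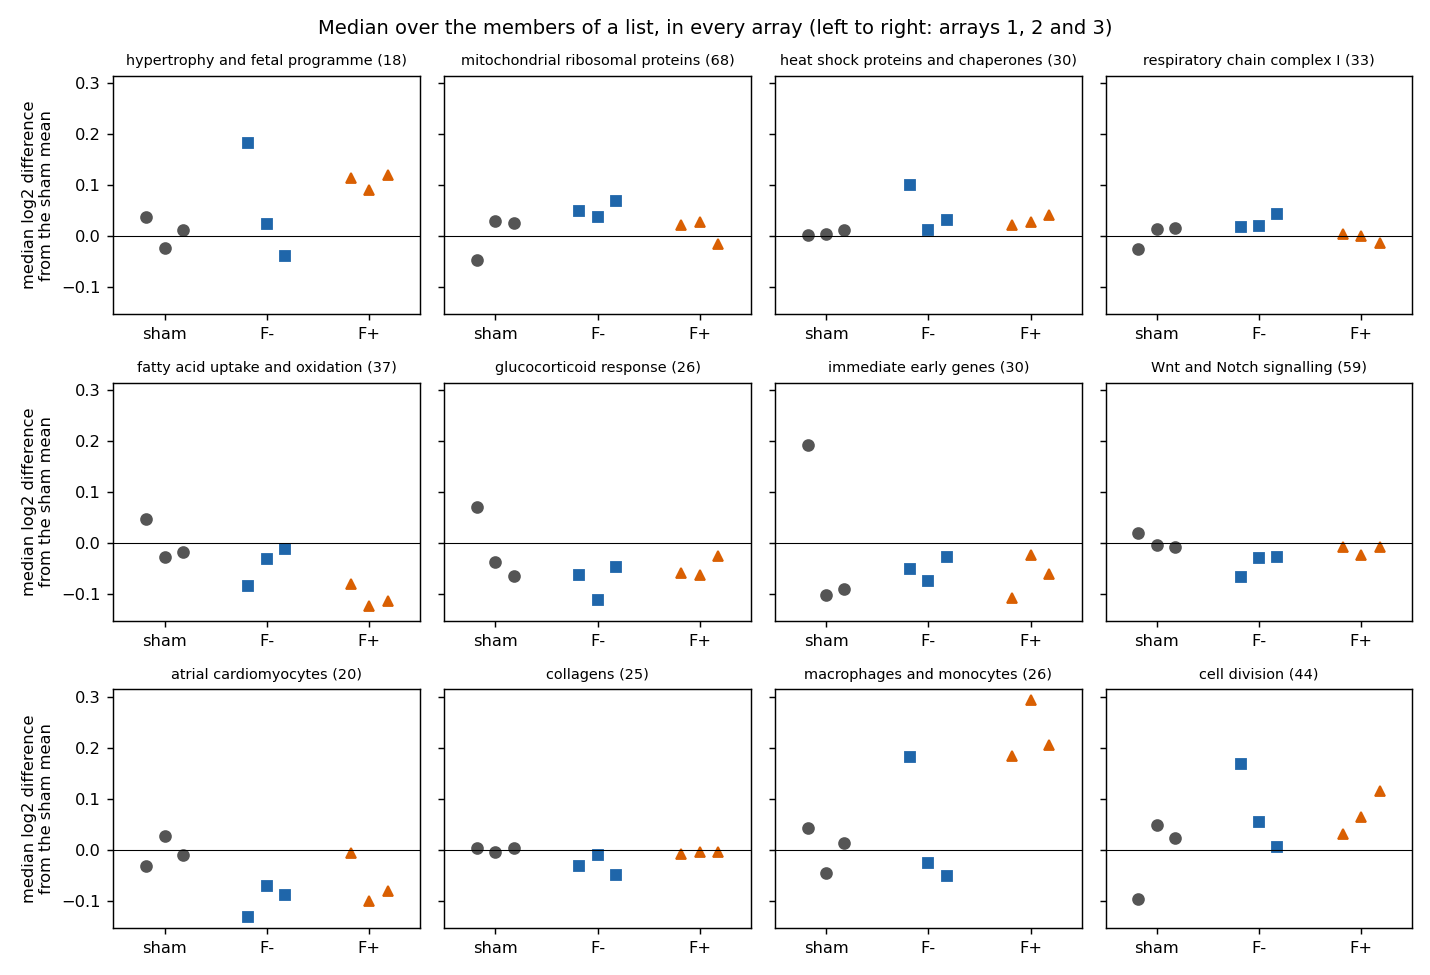
Each panel gives, for 1 gene list, the median over its members of the log2 difference from the sham mean in every array, with arrays 1 to 3 from left to right. Sham array 1 is the highest array for fatty acid, glucocorticoid and immediate early genes, and F- array 1 lies with the F+ arrays for hypertrophy and macrophage genes.

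Most genes of Wnt and Notch signalling, pathways that pattern the heart and are reused in the injured adult organ, had lower means. Of 59 members 47 were lower, and 11 (18.6%) were below sham without overlap and 1 above, against 5.38% below for genes of the same brightness. The median was -0.056, or -0.033 without F- array 1 and -0.030 without sham array 1 and F- array 1. Dkk3, a secreted protein of the Dickkopf family, was at 89.4, 83.9 and 85.5 in sham and 75.2, 79.8 and 76.3 in F-. Tcf7, a transcription factor of the Wnt pathway, was at 42.2, 42.1 and 41.5 in sham and 36.5, 39.7 and 40.1 in F-. Wnt7b, a ligand, was at 27.4, 28.1 and 29.3 in sham and 26.9, 26.8 and 25.3 in F-. All 3 of these genes were below sham in every F- array. Sfrp2, a secreted Wnt binder made by fibroblasts, was at 57.5, 61.6 and 60.9 in sham, 56.4, 43.8 and 44.8 in F- and 59.9, 77.7 and 69.6 in F+. The groups of Sfrp2 were close at one end, since F- array 1 was just under the lowest sham array. Notch3, the Notch receptor of vascular smooth muscle, was at 59.0, 52.5 and 54.5 in sham and 52.8, 48.4 and 49.1 in F-, with overlap.

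In the list of natriuretic, adrenergic and endothelin signalling 32 of 45 members were lower, 7 (15.6%) were below sham without overlap and none above, with a median of -0.042. The median was -0.027 without sham array 1, -0.019 without F- array 1 and -0.015 without both. Gucy1a1, a subunit of the soluble guanylate cyclase that senses nitric oxide, was at 67.2, 63.7 and 62.4 in sham and 54.4, 61.2 and 60.7 in F-. Adcy6, the cyclase downstream of cardiac beta receptors, was at 68.3, 65.7 and 65.7 in sham and 60.3, 64.1 and 62.2 in F-. Pde3a, a phosphodiesterase that breaks down cyclic AMP, was at 94.6, 94.1 and 94.8 in sham and 85.2, 91.4 and 91.8 in F-. In these 3 genes F- array 1 was the lowest, and the other F- arrays were close under the sham values.

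Markers of atrial cardiomyocytes were lower as a set of values. Of 20 measured 17 were lower, 4 (20.0%) were below sham without overlap, and the median was -0.12, or -0.041 without sham array 2 and -0.080 without F- array 1. The summed level of the list was 1149 to 1497 in sham and 1098 to 1187 in F-. Sln, the atrial inhibitor of the calcium pump, was at 53.8, 115.1 and 43.9 in sham and 43.9, 40.4 and 40.6 in F-. Sham array 2, which also had the high Nppa, was the highest of all arrays for Sln. Kcna5, a potassium channel of the atrial list, was below sham in every F- array, with 37.7, 40.5 and 41.3 in sham and 30.9, 34.3 and 34.6 in F-. Nr2f2, a transcription factor of atrial identity that vein and fibroblast cells also express, was at 45.9, 46.2 and 47.1 in sham and 41.0, 42.8 and 41.3 in F-. Neither gene was high in sham array 2 alone. Hamp, which encodes hepcidin, was at 93.1, 106.3 and 72.7 in sham and 81.7, 63.9 and 71.5 in F-, with overlap. Bmp10, a growth factor of atrial myocytes named after its values were seen, gave the lowest difference of all genes, with 18.7, 85.8 and 18.4 in sham and 15.5, 18.7 and 18.5 in F-, and only sham array 2 was high. Dkk3 is also a member. In whole tissue, fewer cells of a type and less RNA per cell cannot be told apart, and the part of atrial tissue in these differences was not tested. The 23 markers of ventricular cardiomyocytes summed to 3166 to 3237 in sham and 3236 to 3253 in F-, so ventricular markers were high in every array, which does not measure an atrial share. A lower direction was not particular to atrial markers. Lower means were found for 13 of 15 skeletal muscle and 11 of 14 valve and cartilage markers. The same held for 17 of 22 markers of Schwann cells and neurons and 12 of 17 of adipocytes. Of the adipocyte markers 3 (17.6%) were below sham without overlap. Higher means were found for 22 of 26 macrophage and 12 of 23 fibroblast markers.

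Ion channels had no common direction. The list of 25 potassium and sodium channel genes also held the calcium channels Cacna1g and Cacna1h and the sodium pump genes Atp1b1 and Fxyd1. Of its members 13 were higher, 1 (4%) was above and 3 (12%) were below sham without overlap, Kcna5 being the lowest at -0.26. Kcne1, a potassium channel subunit named after its values were seen, had the highest difference at 0.28 ± 0.18 (SE), with 36.1, 32.0 and 33.8 in sham and 56, 34.6 and 36.1 in F-. F- array 1 alone was high, and the groups overlapped. Hcn2, a pacemaker channel, was higher without overlap, at 51.4, 58.8 and 63.0 in sham and 76.5, 66.3 and 65.2 in F-, and its F+ arrays were at 76.5, 77.3 and 69.0. Cacna1c, the L-type calcium channel, was at 83.2, 82.6 and 85.4 in sham and 77.9, 82.5 and 81.4 in F-. Of calcium handling genes 14 of 25 were higher, 1 was above and 3 (12%) were below sham without overlap, and the median was 0.0047. The sign of this median was not stable, since it was 0.00040 without F- array 1, -0.0090 to -0.0020 when any other single array was left out, and -0.0062 with quantile normalization.

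The main fibrillar collagens overlapped between the groups, and other matrix genes had no stable direction. Of 25 collagens 18 were lower, and 3 (12%) were below sham without overlap and none above, against 5.69% below for genes of the same brightness. Col1a1 and Col3a1, the main fibrillar collagens of scar, differed by 0.0026 ± 0.080 (SE) and 0.025 ± 0.062 (SE). Col1a1 was at 72.9, 79.9 and 85.3 in sham, 87.2, 77.2 and 74.2 in F- and 76.3, 82.1 and 85.4 in F+, and the 3 groups overlapped. The separated members were not these but Col4a3 of basement membranes (-0.065 ± 0.039, SE), Col5a3 (-0.076 ± 0.029, SE) and Col16a1 (-0.034 ± 0.022, SE), the last of which is named only after its values were seen. Acta2, the smooth muscle actin of myofibroblasts, differed by -0.018 ± 0.028 (SE).

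Among other matrix proteins 7 of 63 (11.1%) were below sham without overlap and none above. Lower means were found for 34 of 63 (54.0%), near the 51.7% of all genes. The number higher was 29, with 32 after median centring, and it was 16, 32 and 33 when F- array 1, 2 or 3 was left out in turn. Eln, which encodes elastin, differed by -0.091 ± 0.038 (SE), and Ltbp1, which tethers latent TGF-beta, was at 59.4, 62.5 and 56.2 in sham and 51.0, 55.0 and 54.8 in F-. Of the enzymes that turn matrix over, Timp4, the metalloproteinase inhibitor most expressed in heart, was at 67.5, 64.4 and 65.5 in sham, 53.6, 59.9 and 60.2 in F- and 53.6, 51.5 and 55.1 in F+. Adamts12 was at 66.3, 63.9 and 62.4 in sham and 55.2, 59.9 and 60.1 in F-. All 3 F- arrays were below every sham array for both genes. They were the only 2 of 54 matrix proteases and inhibitors (3.70%) below sham without overlap, and none was above. That share was no larger than the 4.73% of all genes or the 4.58% of genes of the same brightness. Igfbp3, a binding protein of the insulin-like growth factors, was at 64.0, 63.0 and 63.9 in sham, 54.4, 56.7 and 57.9 in F- and 49.8, 55.0 and 52.0 in F+. Both banded groups were below every sham array for Timp4 and Igfbp3.

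In TGF-beta and BMP signalling 27 of 44 members were lower and 7 (15.9%) were below sham without overlap. Tgfb1 itself was at 66.6, 65.2 and 69.5 in sham and 74.5, 72.4 and 63.6 in F-, with overlap. Smad6, an inhibitor of BMP signals, lay on opposite sides of sham in the banded groups, at 53.0, 52.8 and 52.4 in sham, 48.5, 48.5 and 50.3 in F- and 61.1, 61.0 and 58.0 in F+. The difference of F+ from F- was 0.29, with an adjusted p of 0.12 from limma. Acer2, a ceramidase of the Golgi, did the same, at 67.0, 67.0 and 66.9 in sham, 60.8, 56.6 and 60.3 in F- and 77.0, 74.1 and 80.0 in F+. Its difference of F+ from F- was 0.38, also with an adjusted p of 0.12, so neither difference passed the threshold.

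Fibroblast growth factor genes showed no common direction, with 11 of 28 higher. Fgf23, which encodes a hormone of phosphate balance, was at 26.3, 23.4 and 26.6 in sham and 25.9, 27.4 and 24.1 in F-, and the 3 F+ arrays were at 43.4, 42.4 and 35.6. Its difference of F- from sham was 0.021 ± 0.089 (SE), with a 95% interval of -0.18 to 0.23. Fgfr1, a receptor for several of these ligands, differed by 0.010 ± 0.023 (SE), and Kl, the co-receptor Klotho, by -0.041 ± 0.066 (SE). The values of these 3 genes overlapped between the F- and sham groups. Fgf10, a ligand of epithelial and mesenchymal growth, was the separated member on the lower side, at 35.1, 37.7 and 37.4 in sham and 31.3, 33.5 and 34.5 in F-. Fgf9 and Fgf18 were separated on the higher side, by 0.13 and 0.089.

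Vascular markers were lower by small amounts. Of 22 endothelial markers 17 were lower and 2 were below sham without overlap. Their median of -0.036 was -0.019 without sham array 1, with 8 of 22 higher, and -0.017 without sham array 1 and F- array 1. The summed level of the endothelial list was 1618 to 1721 in sham and 1604 to 1626 in F-, with overlap. Robo4, an endothelial guidance receptor, was at 53.1, 47.0 and 51.4 in sham and 45.7, 43.0 and 44.1 in F-. Of 19 markers of smooth muscle and pericytes 14 were lower, 4 (21.1%) were below without overlap and 1 was above. Mylk, the kinase of smooth muscle myosin, was at 47.1, 47.9 and 47.5 in sham and 44.0, 42.1 and 45.8 in F-, and Lmod1 and Abcc9 differed by -0.094 ± 0.030 and -0.086 ± 0.025 (SE). The summed level of the smooth muscle list was 1366 to 1371 in sham and 1330 to 1350 in F-, against 1378 to 1412 in F+.

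Markers of macrophages depended on F- array 1. Of 26 markers of macrophages and monocytes 22 were higher and 2 (7.69%) were above without overlap, near the 6.87% of genes of the same brightness. The median of 0.037 was -0.018 without F- array 1, with 9 of 26 higher, and 0.0094 without sham array 2, with 14 higher. It was 0.061 to 0.077 without sham array 1, F- array 2 or F- array 3. The summed level was 1341 to 1417 in sham and 1340 to 1565 in F-, and in F+ it was 1592 to 1647. F13a1, a transglutaminase of tissue macrophages, was at 55.4, 55.6 and 56.3 in sham, 62.9, 58.3 and 59.3 in F- and 63.2, 72.9 and 68.5 in F+. Mpeg1, a macrophage pore protein, was at 34.5, 36.2 and 35.0 in sham and 42.1, 37.4 and 36.0 in F-, with overlap. Of 23 markers of T, B and NK cells none was separated. In the interferon list 26 of 41 members were higher and 4 (9.76%) were above without overlap. Its median of 0.024 was -0.0061 without sham array 2, and leaving out F- array 1, 2 or 3 in turn gave 0.013, 0.0010 and 0.046. Among the separated members were Usp18, at 38.7, 43.0 and 43.7 in sham and 48.5, 52.4 and 48.0 in F-, and Cxcl9, a chemokine, at 59.5, 49.9 and 60.1 in sham and 67.1, 66.1 and 63.6 in F-. Ccl26, another chemokine, was below sham, with a log2 difference of -0.30 ± 0.10 (SE). Cxcl9 had the highest and Ccl26 the lowest difference of the chemokine list, in which 35 of 52 members were lower. In that list 6 (11.5%) were below sham without overlap and 1 above, against 5.12% below for genes of the same brightness. Without sham array 1 and F- array 1, 26 of 52 were higher. Of 47 cytokine and inflammation genes 25 were lower. Without overlap 7 (14.9%) were below and none above, against 5.05% below at the same brightness.

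Cell division genes were higher for 36 of 44 members, but 1 was separated, and the median of 0.077 was 0.023 without sham array 1, 0.031 without F- array 1 and -0.019 without both. In cholesterol and lipid synthesis 23 of 31 were higher and 3 were above without overlap. These were Idi1, an isomerase of the mevalonate pathway, at 24.5, 27.9 and 26.6 in sham and 34.0, 28.9 and 32.8 in F-, and the sterol enzymes Cyp51 (0.14 ± 0.043, SE) and Sc5d (0.088 ± 0.029, SE). Nqo1, an NRF2 target that detoxifies quinones, was at 45.7, 44.5 and 44.0 in sham and 52.2, 49.4 and 46.8 in F-. The antioxidant and NADPH oxidase list had no common direction, with 25 of 51 members higher. In it 2 (3.92%) were above and 2 (3.92%) below sham without overlap, no more than the shares of all genes.

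Outside the lists, the genes with the smallest p-values were mixed in function. Rasl11b, a small GTPase of the Ras family, was at 54.8, 58.3 and 59.9 in sham and 68.5, 65.9 and 65.3 in F-. Gcsh, a lipoate-carrying protein of the mitochondrial glycine cleavage system, was at 66.5, 70.3 and 71.0 in sham, 75.8, 77.1 and 77.7 in F- and 68.3, 71.0 and 69.9 in F+. Bcl2l13, a mitochondrial protein of the Bcl-2 family, was at 56.8, 57.5 and 55.8 in sham and 63.2, 60.8 and 61.8 in F-. All 3 lay above sham, with gaps larger than the range of the F- arrays.

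On the lower side stood Appl2, an adaptor of endosomes, at 62.9, 64.2 and 65.8 in sham and 58.6, 59.4 and 59.2 in F-. Tnfrsf19, a receptor of the tumour necrosis factor family, was at 37.9, 40.7 and 38.2 in sham and 34.1, 33.7 and 35.7 in F-, and Lsr, a lipoprotein receptor, differed by -0.15 ± 0.034 (SE). Bhmt, a methyltransferase of homocysteine, was at 20.7, 20.2 and 19.4 in sham and 15.2, 17.2 and 16.4 in F-, and Satl1 differed by -0.20 ± 0.029 (SE). The last pair lay among the dimmest 20% of genes, where the 2903 genes had mean values of up to 22.3.

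The largest separated log2 differences belonged mostly to dim features. Or5k14, an olfactory receptor gene, was at 2.5, 2.3 and 2.9 in sham and 7.0, 3.2 and 4.4 in F-, the largest separated increase at 0.85 ± 0.27 (SE). Klkb1, plasma prekallikrein, was at 23.6, 20.3 and 33.9 in sham and 38.2, 43.7 and 36.1 in F-, and Hells, a chromatin remodeller, at 6.1, 9.2 and 9.7 in sham and 14.3, 12.3 and 10.3 in F-. Klkb1 and Hells varied widely within each group. Lgi1, a secreted neuronal protein, gave the largest separated decrease, with 9.5, 7.8 and 9.0 in sham and 4.2, 5.8 and 6.2 in F-. Of 1105 olfactory receptor genes, which the heart is not known to use as a family, 735 were higher, 66 (5.97%) were above and 18 (1.63%) below sham without overlap, against 3.02% and 3.03% for genes of the same brightness. Their median was 0.046, or 0.030 without sham array 3 and 0.029 with quantile normalization, and 962 of them lay in that dimmest 20%. Of these receptor genes Or4a15 differed by 0.52 ± 0.081 (SE) and Or1o1 by -0.46 ± 0.069 (SE). Neither was the extreme of the list, which ran from -0.54 to 0.85. Over all genes of the dimmest 20% the median was 0.0018, and the part of dim signal in the result was not tested.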

How the data were processed

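Right ventricles of 9 samples were hybridised to Rat Gene 1.0 ST arrays of Affymetrix. RNA was extracted with TRIzol per the methods and with Sepasol per the labels. The values deposited by the authors are a signal per feature, 1 column per array, for 29215 features, and their background correction, summarisation, normalization and scale were not given in the sources used here. Array medians were 33.4 to 33.9. Precision is set by the 3 arrays per group.

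Of the features, 15310 had 1 gene symbol in the platform annotation, 323 had several and 13582 were not listed. RefSeq (GRCr8) held 15279 of the gene IDs. Each of 14506 genes was read from its brightest feature by the mean of the 9 arrays. The log2 of the deposited signal of all features was fitted with limma 3.58.1 (lmFit and eBayes, R 4.3.3), with 1 mean per group over all 9 arrays and the contrast F- minus sham, and the Benjamini-Hochberg procedure was applied to all features with a threshold of 0.05. SEs in the text come from this fit. The fit was tested on simulated data first. Python 3.11.15, pandas 2.3.3, numpy 2.4.6 and matplotlib 3.10.9 were used for counts and plots. A list's summed level is the sum of deposited values over its measured members. An exact permutation test of 3 against 3 arrays cannot go below a p of 0.1, and none was run.

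The comparison, the 61 gene lists and the members named were chosen with earlier results of these data known. Lists are described by counts and medians without a test. Genes could be named if they were among the 12 largest increases or 12 largest decreases without overlap between the groups, the 10 smallest unadjusted p-values in each direction, or the 4 members of a list with the largest moderated t, together with Nppa, Nppb, Myh6, Myh7, Acta1, Acta2, Col1a1, Col3a1, Tgfb1, Gapdh, Fgf23, Fgfr1 and Kl. These rules gave 275 genes, of which the text names a part, and exceptions are marked there. Alternatives were quantile normalization, median centring, omission of the dimmest 33.3% of features, 1 feature or the mean of all features per gene, a fit of 6 arrays, trend and robust priors, no logarithm, square roots, replicate number as a block and omission of arrays. Omission of sham array 1 with F- array 1, and square roots without F- array 1, were added after seeing the data.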

Additional observations from a re-analysis of the deposited data

How the results depend on the processing

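No feature passed limma's adjusted threshold under any alternative run, and the smallest adjusted p was 0.249, without F- replicate 2. Median centring gave 1287 genes above and quantile normalization 994 genes below sham without overlap, against 740 and 686. With fewer arrays overlap is rarer by construction. These counts were 1235 to 1582 above and 1088 to 1648 below when 1 array was left out, 2220 and 2481 without sham array 2 and F- array 1, 2149 and 1930 without sham array 1 and F- array 1, and 1375 and 1354 with square roots and without F- array 1. At an unadjusted p under 0.05, leaving out 1 array gave 285 to 483 genes higher and 225 to 562 lower. The 225 came without sham array 1, and without sham array 1 and F- array 1 there were 230 higher and 245 lower; the cause was not tested. Genes over 1.5-fold higher and lower numbered 1 and 2 without the dimmest features, where fewer genes were tested, 32 and 27 with square roots, 19 and 37 with square roots and without F- array 1, 12 and 7 without sham array 2 and F- array 1, and 5 to 18 and 3 to 6 when 1 array was left out.

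Same-numbered sham and F- arrays did not deviate together over all features (correlations 0.0024, -0.019 and 0.015). Pairing was not stated, and these correlations cannot decide it, since a shared origin need not move most features. With a replicate block 310 genes were higher and 355 lower at an unadjusted p under 0.05 in limma, with 0 features called. The differences of named genes kept their direction in 1824 values under alternatives and changed it in 28, none of a gene whose arrays did not overlap. For a gene without overlap, leaving out arrays or changing the scale cannot reverse the direction. Many of the 1824 values were therefore fixed in advance and do not measure stability. The difference was -0.0063 for Col1a1 and -0.0012 for Fgfr1 with quantile normalization. The difference was -0.00093 for Myh6, -0.13 for Col1a1, -0.038 for Col3a1, -1.4e-05 for Fgfr1 and 0.027 for Kl without sham array 1 and F- array 1. The difference was -0.11 for Myh7, -0.059 for Col1a1, -0.030 for Col3a1, -0.0038 for Tgfb1, -0.042 for Fgf23, 0.0022 for Kl and 0.0039 for Bmp10 without sham array 2 and F- array 1. The difference was -0.20 for Col1a1, -0.069 for Col3a1 and 0.021 for Kl with square roots and without F- array 1. With 1 array left out the log2 difference ranged from -0.95 to 0.10 for Nppa, -0.026 to 0.053 for Myh6, -0.073 to 0.18 for Myh7 and -0.031 to 0.00052 for Acta2. It ranged from -0.066 to 0.056 for Col1a1, -0.023 to 0.059 for Col3a1, -0.038 to 0.069 for Fgf23 and -0.091 to 0.011 for Kl.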
